A study of Mus musculus with 15 samples.

Results

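Of the 13 proteins that mouse mitochondria encode in their own genome, 6 belong to complexes other than complex I, and their genes are described here across 15 ovaries. They are mt-Co1, mt-Co2 and mt-Co3 (subunits of cytochrome c oxidase, complex IV), mt-Cytb (cytochrome b of complex III), and mt-Atp6 and mt-Atp8 (subunits of the ATP synthase). They were taken by name as 6 of the 24656 genes in the deposited table, and they were chosen with their higher level in canagliflozin-treated ovaries already known. Their levels in any comparison with the canagliflozin group are therefore given as a description, with no test. Proportions and ratios among the mitochondrial genes, which the choice did not use, are tested.

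The mice were UM-HET3, a genetically heterogeneous stock in which each animal has its own genotype. The first group of 5 was 12 months old and had received canagliflozin, an inhibitor of the renal glucose transporter SGLT2, from 6 months of age. A further 5 mice were untreated controls of 12 months, and the last 5 were untreated controls of 6 months. Assignment to groups was random and took place at 6 months of age. Each library came from polyadenylated RNA of 1 whole ovary of 1 mouse, so n counts mice. RNA extraction is described only for the ovaries of 12-month mice, and no batch is recorded, so age and any difference in preparation cannot be told apart. In whole tissue, fewer cells of a type and less RNA per cell cannot be told apart either.

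The mitochondrial genome is a small circle present in many copies per cell, transcribed as long precursors that are cut at the transfer RNAs lying between most of its genes. Cytochrome c oxidase passes electrons from cytochrome c to oxygen, and Co1, Co2 and Co3 form its catalytic core, with the nucleus supplying the smaller subunits. Cytochrome b is the only subunit of complex III made inside mitochondria. Atp6 forms part of the proton path of the ATP synthase and Atp8 sits beside it, and both are translated from 1 shared messenger RNA whose reading frames overlap. In the ovary, mitochondria are abundant in the oocyte and in the steroid-making cells of the corpus luteum, where the first step of steroid synthesis takes place inside them.

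The overlap between mt-Atp8 and mt-Atp6 bears on how reads are divided between them, and both ends of it are shown here from the GENCODE M21 transcripts (GRCm38, mitochondrial chromosome, plus strand). The mt-Atp8 transcript has 204 bases and is given whole, and the mt-Atp6 transcript has 681 bases, of which the first 120 are given. Capitals mark the 43 bases that both transcripts contain, which are 21.1% of mt-Atp8 and 6.31% of mt-Atp6.

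mt-Atp8: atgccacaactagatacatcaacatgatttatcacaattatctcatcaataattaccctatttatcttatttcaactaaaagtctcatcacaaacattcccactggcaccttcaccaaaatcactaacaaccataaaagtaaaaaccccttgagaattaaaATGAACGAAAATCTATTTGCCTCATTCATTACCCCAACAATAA

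mt-Atp6: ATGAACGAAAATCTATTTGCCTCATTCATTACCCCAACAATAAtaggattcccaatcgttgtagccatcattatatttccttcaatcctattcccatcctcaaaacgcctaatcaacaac

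A read that falls within the capitals fits both genes. On the shared messenger RNA, a read that runs past either end of the capitals also covers bases of both. How either kind of read was counted is not given in the sources used here.

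Copies of mitochondrial sequence in the nuclear genome are the other source of shared reads. Aligned to all other GENCODE M21 transcripts, mt-Atp6 matched Gm10925 without a mismatch over 678 bases, mt-Co2 matched Gm28661 over 681 and mt-Co3 matched Gm28437 over 783, again without a mismatch, so reads of these pairs cannot be told apart. The copy of mt-Co1 on chromosome 2, Gm13340, covers all 1545 bases with 37 mismatches (97.6% identity) and is shown as the contrast. The window shown, from position 1174 to 1293 of the mt-Co1 transcript, was picked as a stretch of 120 bases with the most mismatches. Capitals mark the 6 bases that differ.

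mt-Co1: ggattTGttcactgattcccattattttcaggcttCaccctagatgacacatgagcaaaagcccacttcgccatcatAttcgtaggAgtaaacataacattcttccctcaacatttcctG

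Gm13340: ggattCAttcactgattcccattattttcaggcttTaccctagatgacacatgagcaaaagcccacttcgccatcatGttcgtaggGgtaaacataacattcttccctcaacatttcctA

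The best match of mt-Cytb was Gm11410, at 92.9% identity over 1142 bases. No match of at least 60 bases at 90% identity was found for mt-Atp8 among these transcripts, which leaves unannotated copies unexamined. The 43 bases that mt-Atp8 shares with mt-Atp6 do lie in Gm10925, which matched mt-Atp6 from its start.

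Values are gene-level reads scaled by the authors with a size factor for each library, and undoing that scaling gave back whole reads. Depth in those reads ran from 8472205 to 13046600 reads in the canagliflozin libraries, from 11309530 to 13108281 in the 12-month controls and from 11750426 to 13629491 in the 6-month controls. The labels state a depth of about 20000 reads, far below these totals, and the sources used here do not resolve the difference. All 7 ovary markers examined (Amh, Foxl2, Zp3, Gdf9, Inha, Star and Cyp17a1) were detected in every library. Of 12 lists of cell type markers, 0 separated the canagliflozin ovaries from the 12-month controls without overlap. The single list that separated the 12-month controls from the 6-month controls was that of lymphocytes, with all of its 7 markers measured and summed levels of 438 to 828 normalised reads in 12-month controls and 135 to 192 in 6-month controls, and its part in the results was not tested. Luteal markers summed to 148962 to 381582 in the canagliflozin ovaries, 182385 to 313902 in the 12-month controls and 199679 to 282482 in the 6-month controls, with overlap throughout. In each group replicate 5 had the lowest values, for all 6 genes in the canagliflozin ovaries, 5 of 6 in the 12-month controls and all 6 in the 6-month controls. Canagliflozin replicate 5 lay farthest below its group, and its levels overlapped the 12-month controls for mt-Co2, mt-Co3 and mt-Atp6. 12-month control replicate 3 had the highest red cell marker sum of all libraries (18087 normalised reads, against 168 to 4300.1 in the other 12-month controls) and mitochondrial proportions unlike those of the rest. Main results that rest on either of those libraries are given with and without it.

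The 3 oxidase genes were highest in the canagliflozin ovaries, intermediate in the 12-month controls and lowest in the 6-month controls. mt-Co1, which encodes the subunit that holds the heme and copper site where oxygen is reduced, had 356284, 287274, 291224, 337556 and 190170.0 size-factor-normalised reads in replicates 1 to 5 of the canagliflozin ovaries, 159062, 150898, 158777, 158684 and 142054 in those of the 12-month controls and 124447, 109475, 114819, 112158 and 107009 in those of the 6-month controls. Every canagliflozin ovary was above every 12-month control, and every 12-month control was above every 6-month control. For mt-Co2, which encodes the subunit that takes electrons from cytochrome c, the canagliflozin ovaries held 90767, 71756, 69731, 95419 and 42005 normalised reads, the 12-month controls 36938, 38636, 48820.5, 34925 and 33749.6 and the 6-month controls 27617, 28877, 30124, 24836 and 23062. The canagliflozin ovary of replicate 5 lay below 12-month control replicate 3, so those groups overlapped, while both 12-month groups were above all 6-month controls. For mt-Co3, whose product completes the core, the canagliflozin ovaries held 80501, 63146, 61995, 81774 and 42211 normalised reads, the 12-month controls 35742, 34732, 42341, 35403 and 29545 and the 6-month controls 25147, 25471, 26833, 23545 and 21478. Here too the only overlap between the canagliflozin ovaries and the 12-month controls was between these same 2 libraries.

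mt-Cytb followed the same order. For mt-Cytb the canagliflozin ovaries held 143192, 106032, 104634, 135615 and 64861 normalised reads, the 12-month controls 57776, 61037, 54244, 57681 and 50380.3 and the 6-month controls 43417, 44644, 47507, 38948 and 38059.8. No pair of groups overlapped.

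The ATP synthase genes did not share 1 pattern. For mt-Atp6 the canagliflozin ovaries held 91086, 63051, 59744, 77582 and 39793 normalised reads, the 12-month controls 35610.2, 36939, 41665, 34609.6 and 28023 and the 6-month controls 24302, 25729, 27574, 21264 and 21009. As for mt-Co2 and mt-Co3, canagliflozin replicate 5 fell below 12-month control replicate 3 and the 6-month controls were below all others. For mt-Atp8 the canagliflozin ovaries held 11712, 8714, 7987, 9841 and 5390.5 normalised reads, the 12-month controls 4846, 4791, 3635, 4729.6 and 4341 and the 6-month controls 4583, 4347, 4594, 3953 and 3615. All canagliflozin ovaries were above all 12-month controls, but the 12-month and 6-month controls overlapped over most of their ranges. The lowest 12-month value of mt-Atp8 was that of replicate 3, the library with the highest mt-Co2, mt-Co3 and mt-Atp6 of its group.

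**Figure D1:**
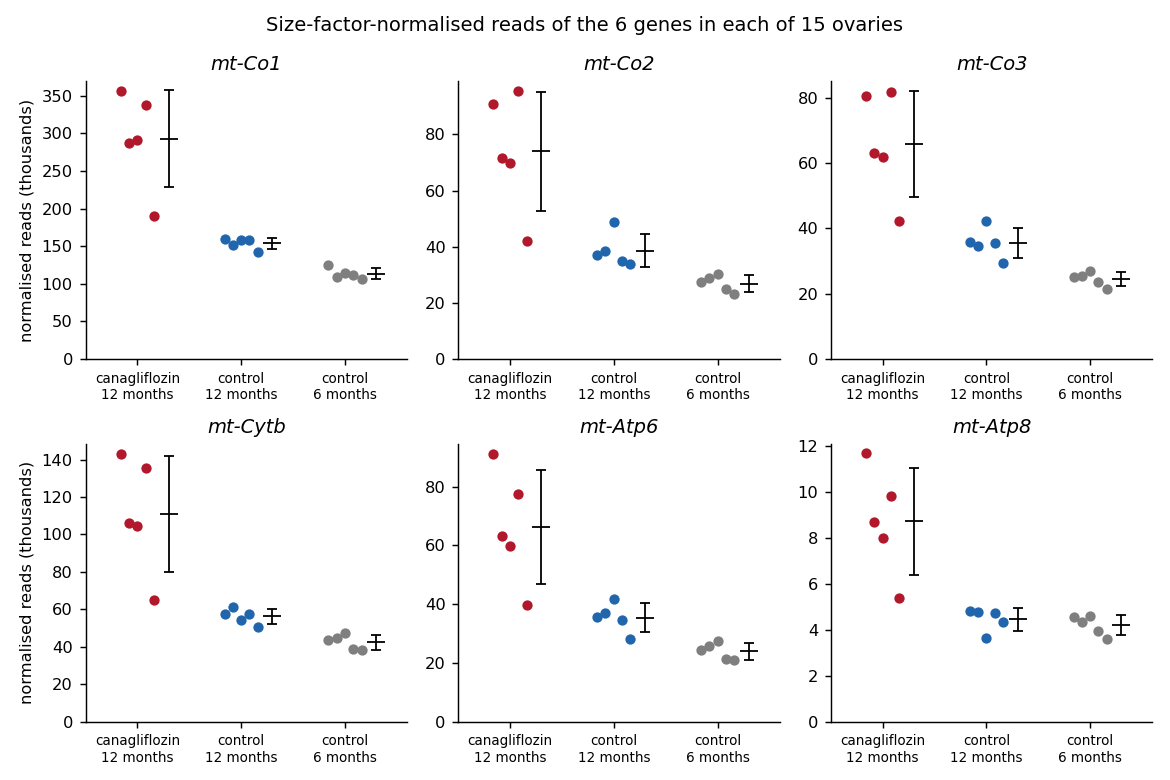
Size-factor-normalised reads (vertical axes, scaled as labelled, each starting at 0) for the 6 genes, 1 panel per gene, with 1 point per ovary in replicate order and the mean ± SD (n = 5) as a bar beside each group. In each panel the canagliflozin ovaries spread most widely, with replicate 5 lowest, and mt-Atp8 is the only panel in which the 12-month and 6-month controls overlap.

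Relative to the 12-month controls, the log2 fold change of the canagliflozin group lay in a narrow band for all 6 genes, from 0.86 to 0.93, with a median of 0.89 beside 0.00 over all 17569 genes tested. On this log2(value + 1) scale mt-Co1 differed by 0.90 (SE 0.16), which is 1.86-fold, and means were 292502 ± 64418 in canagliflozin ovaries and 153895 ± 7461 in 12-month controls (SD, n = 5 each). mt-Cytb differed by 0.93 (SE 0.18), with 110867 ± 30968 in canagliflozin ovaries and 56224 ± 4055 in 12-month controls. mt-Co2 differed by 0.89 (SE 0.19), with 73935 ± 21136 in canagliflozin ovaries and 38614 ± 6005 in 12-month controls. For each of these genes the SD among canagliflozin ovaries exceeded that among 12-month controls. The other 3 had log2 fold changes of 0.86 (mt-Co3, SE 0.16), 0.86 (mt-Atp6, SE 0.19) and 0.93 (mt-Atp8, SE 0.16). In 3 of the 6 genes (mt-Co1, mt-Cytb and mt-Atp8) every canagliflozin ovary exceeded every 12-month control, which was so for 0.586% of all genes tested. Limma calls at an adjusted p under 0.05 covered 0.00569% of all genes as higher and 0% as lower in this comparison. Since the genes were chosen on this contrast, nothing is read from those shares. Without canagliflozin replicate 5 the median of the 6 was 1.06, and without 12-month control replicate 3 it was 0.92.

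As a share of all reads, the 6 genes together took 6.15, 4.75, 4.84, 5.70 and 3.24% in the canagliflozin ovaries, 2.75, 2.88, 3.05, 2.81 and 2.53% in the 12-month controls and 2.11, 2.08, 2.16, 1.94 and 1.84% in the 6-month controls. The canagliflozin libraries were the most variable group, and the lowest of them was still above the highest 12-month control.

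The comparison of 12-month with 6-month controls addressed age in untreated ovaries, and it is tested here over all 17569 genes, although it shares the 12-month controls with the contrast that chose the genes. The log2 fold change was positive for all 6 genes and lay between 0.41 and 0.56 for all but mt-Atp8, with a median of 0.48 beside 0.00 over all genes, and only mt-Co3 passed the threshold. mt-Co3 rose to 35553 ± 4553 at 12 months, against 24495 ± 2052 at 6 months (log2 fold change 0.53 with SE 0.16, 1.45-fold; adjusted p = 0.0444, limma). mt-Atp6 had 35369 ± 4917 at 12 months and 23976 ± 2841 at 6 months (log2 fold change 0.56, SE 0.19, limma, adjusted p = 0.0620). mt-Co1 had 153895 ± 7461 at 12 months and 113582 ± 6739 at 6 months (limma adjusted p = 0.0826), and mt-Co2 38614 ± 6005 at 12 months and 26903 ± 2907 at 6 months (limma adjusted p = 0.0901). These differences exceeded the SD of either group but did not pass the threshold. mt-Cytb had 56224 ± 4055 at 12 months and 42515 ± 3964 at 6 months (limma adjusted p = 0.152). mt-Atp8 differed least, at 4468 ± 507 at 12 months and 4218 ± 426 at 6 months (log2 fold change 0.08, SE 0.16, limma, adjusted p = 0.790).

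Against these counts, 5.4% of all genes tested were called higher and 7.01% lower with age. In 5 of the 6 genes every 12-month control was above every 6-month control, which held for 5.63% of all genes. The count of called genes changed between fits. The canagliflozin ovaries, which vary most, enter the shared estimate of the spread, and their part in this count was not tested. Fitted on the 12-month and 6-month controls alone, 5 of the 6 were called, all but mt-Atp8 (mt-Co1 adjusted p = 0.0116, mt-Cytb adjusted p = 0.0199, limma). Without canagliflozin replicate 5 the count was also 5. It was 2 without canagliflozin replicate 1 or 12-month control replicate 5, and 0 without canagliflozin replicate 3, any other 12-month control or any 6-month control. The shares of all genes called by these limma fits are not given here, so their counts cannot be set beside such a share. The call of mt-Co3 was kept in 5 of the 15 limma fits that left out 1 library, whose adjusted p ran from 0.0123 to 0.105, the value without 12-month control replicate 3. DESeq2 on the recovered reads called 4 of the 6 higher, where it called 7.59% of all genes higher and 9.23% lower, and edgeR called 1, with 5.67% and 6.99% of all genes.

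The canagliflozin ovaries and the 6-month controls differ in both age and treatment, and log2 fold changes between them ran from 1.01 for mt-Atp8 to 1.42 for mt-Atp6, with a median of 1.36. No canagliflozin ovary fell within the range of the 6-month controls for any of the 6 genes.

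Levels can be set side by side between genes per length, here as normalised reads per kb of the GENCODE transcript. In canagliflozin ovaries mt-Co1 had the highest level, 189321 ± 41695 reads per kb (mean ± SD, n = 5). It was followed by mt-Co2 at 108093 ± 30899.8, mt-Atp6 at 97285 ± 28415, mt-Cytb at 96912 ± 27070.3 and mt-Co3 at 84088 ± 20658 reads per kb. mt-Atp8 was lowest at 42789 ± 11452. The 12-month controls had the same order, from 99608 ± 4829 for mt-Co1 to 21904 ± 2483 for mt-Atp8. In the 6-month controls mt-Co1 was at 73516 ± 4362 and mt-Atp8 at 20678 ± 2088, and mt-Cytb (37164 ± 3465) stood before mt-Atp6 (35206 ± 4171). In the values as deposited, mt-Co1 was the highest and mt-Atp8 the lowest of the 6 in each of the 15 libraries, while the ranges of neighbours among mt-Co2, mt-Atp6, mt-Cytb and mt-Co3 overlapped within each group. mt-Atp6 was above mt-Cytb in 2 of the 5 canagliflozin ovaries, 4 of the 5 12-month controls and 0 of the 5 6-month controls. This order is uncertain, since mt-Co2, mt-Co3 and mt-Atp6 share reads with identical copies and mt-Cytb does not. The places of mt-Atp8 and mt-Atp6 also depend on how reads at their overlap were counted. With the reads of all matched copies added, mt-Co1 was the highest in 13 of the 15 libraries and mt-Co2 in 2, which were canagliflozin replicate 4 (240826 reads per kb of mt-Co2 and 230738 of mt-Co1) and 12-month control replicate 3 (121211 of mt-Co2 and 111790.0 of mt-Co1). With those reads added, mt-Atp6 and mt-Co3 were both above mt-Cytb in every library of each group. In 6-month control replicate 1 they had 62287 and 55734 reads per kb, against 37962 of mt-Cytb. No reads were added to mt-Atp8, which was already the lowest in all 15, so this step could not change its place.

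The balance of reads among the mitochondrial genes does not depend on their total level and could be tested in both comparisons. The 6 genes made up 68.6, 67.6, 69.3, 71.2 and 69.4% of the reads of the 13 mitochondrial protein-coding genes in canagliflozin ovaries, 69.5, 68.4, 71.6, 70.1 and 70.6% in the 12-month controls and 69.3, 69.8, 69.5, 71.4 and 70.0% in the 6-month controls. The 3 groups overlapped, and no difference was detected (canagliflozin minus 12-month control -0.80 percentage points, exact two-sided permutation p = 0.333, and 12-month minus 6-month control 0.05, exact p = 0.944, n = 5 per group). mt-Co1 alone took 31.6 to 34.4% in canagliflozin ovaries, 31.5 to 34.8% in 12-month controls and 31.7 to 35.6% in 6-month controls. mt-Cytb, the next of the 6, took 11.7 to 13.1% in canagliflozin ovaries, 11.1 to 12.8% in 12-month controls and 12.1 to 13.1% in 6-month controls.

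**Figure D2:**
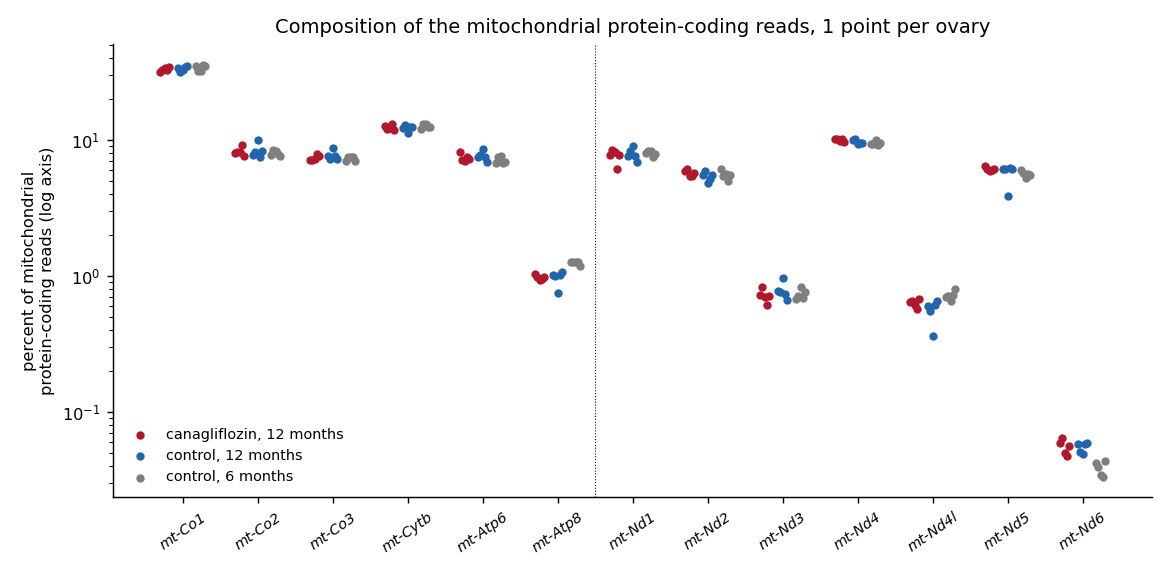
Percent of the reads of the 13 mitochondrial protein-coding genes taken by each gene (vertical log axis), with 1 point per ovary and the groups side by side within each gene. The 6 genes stand left of the dotted line and the complex I genes right of it. mt-Atp8 lies between 1.18 and 1.27% in the 6-month controls and at or below 1.06% in every 12-month ovary.

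Ratios between the oxidase genes, and of cytochrome b to Co1, overlapped between the 3 groups. Within libraries the log2 ratio of mt-Co2 to mt-Co1 averaged -2.01 ± 0.13 in canagliflozin ovaries, -2.01 ± 0.19 in 12-month controls and -2.08 ± 0.14 in 6-month controls (SD, n = 5 each). For mt-Co3, the log2 ratio of mt-Co3 to mt-Co1 averaged -2.16 ± 0.07 in canagliflozin ovaries, -2.12 ± 0.13 in 12-month controls and -2.22 ± 0.11 in 6-month controls (SD, n = 5 each). For mt-Cytb, the log2 ratio of mt-Cytb to mt-Co1 averaged -1.42 ± 0.10 in canagliflozin ovaries, -1.45 ± 0.09 in 12-month controls and -1.42 ± 0.13 in 6-month controls (SD, n = 5 each). Differences between canagliflozin and 12-month controls were -0.00141, -0.03 and 0.03 for these 3 ratios (exact two-sided permutation p = 0.984, 0.651 and 0.579). Between 12-month and 6-month controls they were 0.08, 0.09 and -0.03 (exact permutation p = 0.5, 0.302 and 0.714). The highest mt-Co2 and mt-Co3 ratios of all libraries were those of 12-month control replicate 3. Without that library the 12-month minus 6-month control differences of these 2 ratios were 0.000486 and 0.04.

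The ratio of mt-Atp8 to mt-Atp6, the pair that shares a messenger RNA, was lower in every 12-month ovary than in every 6-month ovary. Its log2 values were -2.96, -2.86, -2.90, -2.98 and -2.88 in the canagliflozin ovaries, -2.88, -2.95, -3.52, -2.87 and -2.69 in the 12-month controls and -2.41, -2.57, -2.59, -2.43 and -2.54 in the 6-month controls. The canagliflozin ovaries and the 12-month controls overlapped. As both reading frames lie on a shared messenger RNA, the ratio describes where reads along it were counted, not the levels of separate messengers. In linear terms, mt-Atp6 had 7.55 ± 0.271 reads per mt-Atp8 read in canagliflozin ovaries, 8.06 ± 1.96 in 12-month controls and 5.68 ± 0.320 in 6-month controls (SD, n = 5 each). The 12-month minus 6-month control difference was -0.48 log2 units (exact two-sided permutation p = 0.00794, the smallest the design allows, n = 5 per group). Adjusted over the 10 composition tests this p was 0.0794 and did not pass, and a lone result at the smallest p cannot pass in a family of 10. Canagliflozin minus 12-month control gave 0.06 (exact p = 0.881), and the adjusted p of the other 9 tests was 0.984 in each.

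12-month control replicate 3 had the lowest ratio, and without it the age difference was -0.34 (exact two-sided permutation p = 0.00794, 4 against 5 libraries). With the reads of the nuclear copies added to mt-Atp6, and none to mt-Atp8, it was -0.45, and with the mean of all 6 genes as the denominator -0.34 (exact permutation p = 0.00794 for each, n = 5 per group). As a percent of mitochondrial protein-coding reads, mt-Atp8 was at 1.04, 0.983, 0.930, 0.950 and 0.974% in canagliflozin ovaries, 1.02, 1.00, 0.744, 1.02 and 1.06% in 12-month controls and 1.27, 1.27, 1.27, 1.26 and 1.18% in 6-month controls. The other overlapping pair of mitochondrial genes, mt-Nd4l and mt-Nd4, shares 7 bases, and its log2 ratio ran from -4.14 to -3.84 in canagliflozin ovaries, -4.69 to -3.87 in 12-month controls and -3.93 to -3.58 in 6-month controls, with overlap. mt-Atp8 (204 bases) and mt-Nd4l (297 bases) are the 2 shortest of these transcripts, and the next, mt-Nd3 (348 bases), had an age log2 fold change of 0.54 (limma adjusted p = 0.0578), against 0.08 and 0.07 for those 2. Whether transcript length or the counting of short genes plays a part was not tested.

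**Figure D3:**
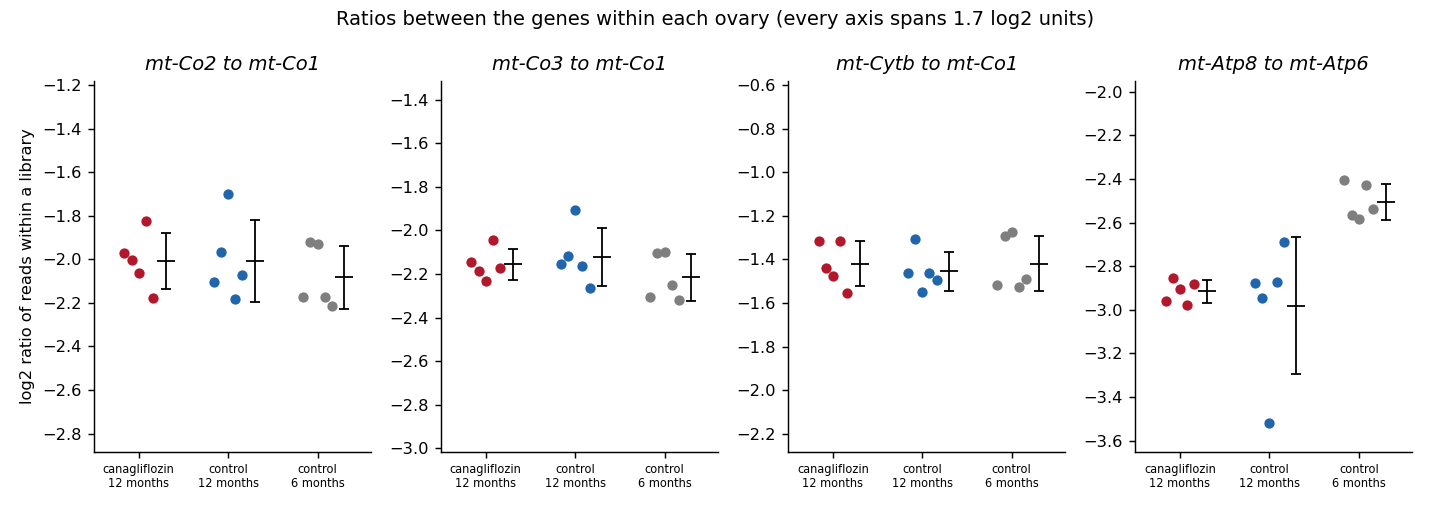
Log2 ratio of reads between pairs of the 6 genes within each library (vertical axes, each spanning 1.7 log2 units), with 1 point per ovary and mean ± SD (n = 5) beside each group. Groups overlap in the 3 ratios to mt-Co1, while the 6-month controls (-2.59 to -2.41) stand above all 12-month ovaries in the ratio of mt-Atp8 to mt-Atp6, where 12-month control replicate 3 is lowest at -3.52.

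Nuclear copies were assigned a large part of the reads of 3 of these genes. Gm28661 held 39.7 to 40.9% of the reads of its pair with mt-Co2 in canagliflozin ovaries, 39.3 to 42.0% in 12-month controls and 40.3 to 42.0% in 6-month controls. Gm28437, beside mt-Co3, held 42.1 to 46.0% in canagliflozin ovaries, 43.3 to 45.6% in 12-month controls and 41.7 to 44.1% in 6-month controls. Gm10925, beside mt-Atp6, held 39.6 to 41.6% in canagliflozin ovaries, 38.7 to 42.4% in 12-month controls and 40.7 to 42.7% in 6-month controls. The groups overlapped for each of these copies. Gm13340, which differs from mt-Co1 at the bases capitalised earlier, held 2.89 to 3.11% of its pair in canagliflozin ovaries, 2.83 to 3.14% in 12-month controls and 2.93 to 3.25% in 6-month controls. The shorter Gm29216, which matches the end of mt-Co1 at 99.8% over 483 bases, held at most 2.41% in any canagliflozin ovary and 5.53% in 12-month control replicate 3, where it had 9292 normalised reads. With Gm11410 the share beside mt-Cytb was at most 0.0533%. Reads of an identical copy may belong to the mitochondrial gene, and adding them would raise the level of mt-Co2 by 64.6 to 72.5%, that of mt-Co3 by 71.5 to 85.1% and that of mt-Atp6 by 63.2 to 74.5% over the 15 libraries. With copies added, the median log2 fold change of the 6 was 0.89 for canagliflozin minus 12-month control and 0.48 for 12-month minus 6-month control, and mt-Co3 was again the 1 gene called with age (limma adjusted p = 0.0395).

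The 7 mitochondrial genes of complex I, the other proteins made inside mitochondria, had log2 fold changes of 0.79 to 1.12 in canagliflozin minus 12-month control and 0.07 to 0.96 in 12-month minus 6-month control, with medians of 0.95 and 0.46. The 6 genes lay within both ranges.

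Complexes III, IV and V are completed by proteins encoded in the nucleus, and 76 of 78 measured genes for these subunits and their assembly factors passed the filter on low values. No nuclear partner was called between canagliflozin and 12-month controls by limma, while 23 of 76 (30.3%) had an unadjusted p under 0.05 by limma, against 9.2% of all genes tested, edgeR called 0 and DESeq2 called 1. Without canagliflozin replicate 5 limma called 1 as higher. Their median log2 fold changes were positive and smaller than that of the mitochondrial genes. For complex III, 8 of 9 had a positive log2 fold change, with a median of 0.25. For complex IV it was 14 of 15 with 0.29, for the ATP synthase 15 of 19 with 0.24, and for assembly factors 22 of 33 with 0.13. Over all 17569 genes 8719 were positive. Genes with short transcripts tended the same way, with a median of 0.12 in the shortest 20% of transcripts (up to 1479 bases) and -0.07 in the longest 20%. The median transcript has 709 bases in the complex IV list and 1363 in that of complex III. It has 1599 in the ATP synthase list and 1612 in that of assembly factors. Whether transcript length plays a part was not tested.

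In canagliflozin minus 12-month control the 3 complex III genes with the smallest p encode small subunits. Uqcrq averaged 2998 ± 756 in canagliflozin ovaries and 1981 ± 348 in 12-month controls (log2 fold change 0.57, SE 0.17, adjusted p = 0.447, limma), and Uqcrb and Uqcr11 had log2 fold changes of 0.38 and 0.34 (limma adjusted p = 0.514 and 0.523). In complex IV they were Cox8a, Cox7c and Cox6b1, nuclear subunits that surround the mitochondrial core, with log2 fold changes of 0.43, 0.40 and 0.43 (limma adjusted p = 0.326, 0.363 and 0.367). Cox7c averaged 1272 ± 182 in canagliflozin ovaries and 961 ± 95.3 in 12-month controls, a difference larger than the SD of either group that did not pass over all genes. In the ATP synthase Atp5mc1 (Atp5g1 in the table), a gene for the ring of c subunits that turns against Atp6, had 494, 449.9, 494, 382 and 256 normalised reads in canagliflozin ovaries and 237, 235, 247, 188 and 249 in 12-month controls. The groups did not overlap (log2 fold change 0.81, SE 0.22, adjusted p = 0.367, limma), and this is the partner that DESeq2 called. Atp5mk (Usmg5), a small membrane subunit, and Atp5if1 (Atpif1), the inhibitor of the enzyme's reverse reaction, had 0.42 and 0.40 (limma adjusted p = 0.421 and 0.462). Among assembly factors of complex IV the leading genes were Pet100, Cox19 and Cox20, at 0.49, 0.28 and 0.42 (limma adjusted p = 0.462, 0.462 and 0.481).

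With age, limma on all 15 libraries called 2 of the 76 nuclear partners higher and 2 lower. In this fit those shares were below the 5.4% and 7.01% of all genes. Cox17, which carries copper towards the oxidase, rose to 1106 ± 269 in 12-month controls, against 727 ± 64.4 in 6-month controls (log2 fold change 0.58, SE 0.15, adjusted p = 0.0192, limma). Each 12-month value (1062, 957, 1575, 907 and 1032) was above each 6-month value (757, 698, 826, 674 and 680.1). Atp5mj (2010107E04Rik), a small ATP synthase subunit, rose to 445 ± 71.6 in 12-month controls, against 328 ± 44.5 in 6-month controls (log2 fold change 0.44, SE 0.13, adjusted p = 0.0400, limma), although 12-month replicate 5 lay below 6-month replicate 3. Both genes had their highest 12-month value in replicate 3, and without that library their log2 fold changes were 0.45 and 0.35. The called counts moved with the fit. They were 1 higher and 1 lower without 12-month control replicate 3 (limma). When only the 2 control groups were fitted, 9 were called higher, and the share of all genes is not given for that fit. DESeq2 called 10 of the 76 higher, a share above the 7.59% of all genes that it called higher.

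Taco1, an activator of the translation of mt-Co1, fell to 69.6 ± 18.6 in 12-month controls, against 126 ± 16.7 in 6-month controls (log2 fold change -0.87, SE 0.19, adjusted p = 0.00718, limma). It had 70.6, 55.3, 53.2, 68.7 and 99.9 normalised reads at 12 months and 155, 124, 122, 115 and 113 at 6 months, without overlap, and mt-Co1 itself, as given earlier, was higher in all 12-month controls. In canagliflozin ovaries Taco1 averaged 61.1 ± 13.9 (canagliflozin minus 12-month control log2 fold change -0.17, SE 0.19, adjusted p = 0.780, limma). Atp5f1b (Atp5b), the catalytic beta subunit of the ATP synthase, fell to 9277 ± 174 in 12-month controls, against 12193 ± 848 in 6-month controls (log2 fold change -0.39, SE 0.12, adjusted p = 0.0368, limma), without overlap. Canagliflozin ovaries averaged 8196 ± 1551. Over the 15 fits that left out 1 library, Taco1 and Cox17 each kept the call in all 15. Atp5b kept its call in 6 (limma adjusted p from 0.0125 to 0.0889) and Atp5mj in 8 (from 0.0297 to 0.103).

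The nuclear lists had age medians of 0.32 for complex III (7 of 9 positive), 0.25 for complex IV (15 of 15), 0.18 for the ATP synthase (14 of 19) and 0.05 for assembly factors (20 of 33), beside 0.00 over all genes. Those with the smallest p that did not pass were Uqcrq (0.52, limma, adjusted p = 0.0596), Uqcrh (0.32, adjusted p = 0.117) and Uqcr11 (0.35, adjusted p = 0.140) in complex III. In complex IV they were Cox7a2 (0.36, limma, adjusted p = 0.0766), Cox6c (0.36, adjusted p = 0.0810) and Cox8a (0.30, adjusted p = 0.0855). Atp5pd (Atp5h), of the stalk that holds the ATP synthase together, had 0.44 (limma adjusted p = 0.0520), and Ttc19, an assembly factor of complex III, 0.40 (adjusted p = 0.0926).

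**Figure D4:**
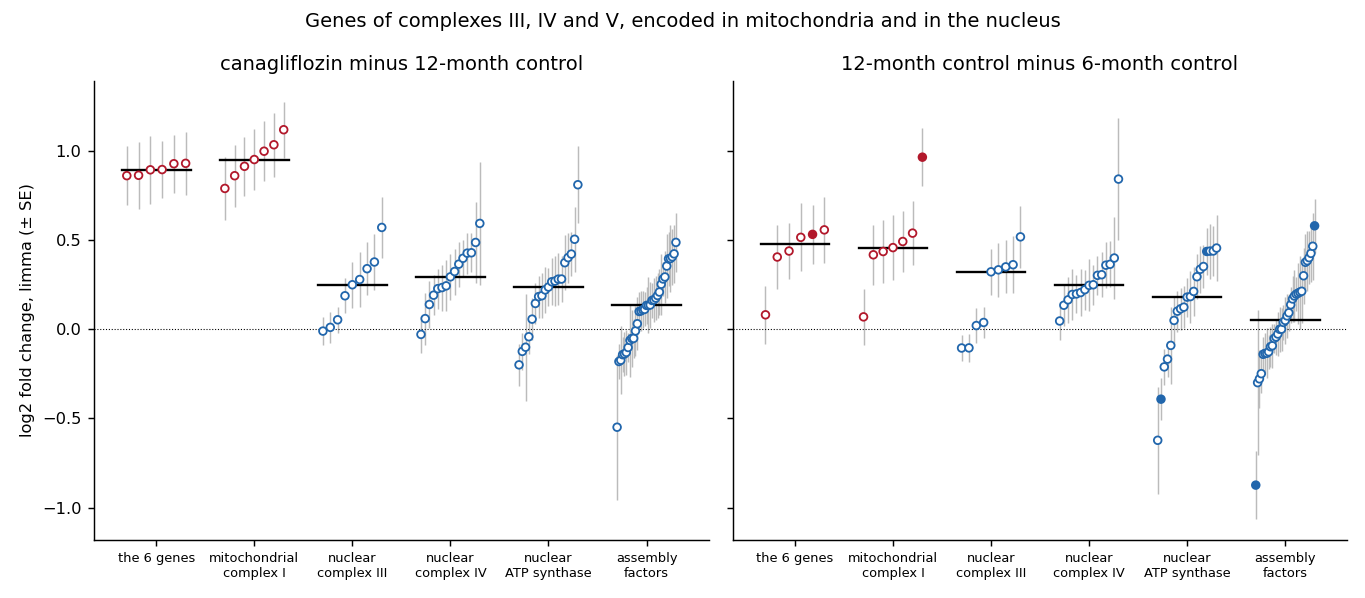
Log2 fold change from the limma fit (vertical axis, bars ± SE) for each gene of 6 lists, with canagliflozin minus 12-month control on the left and 12-month minus 6-month control on the right. Black lines are list medians, and filled points passed an adjusted p under 0.05 (not marked for mitochondrial genes on the left, where they were chosen on that contrast). The 6 genes lie between 0.86 and 0.93 on the left, above the nuclear medians of 0.13 to 0.29, and on the right mt-Atp8 lies apart from the other 5.

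Likeness over the 15 libraries was measured as the root mean square difference between a gene's log2(value + 1) profile, centred on its own mean, and the mean centred profile of the 6 genes. The 6 genes themselves differed from their mean by 0.0513 (mt-Cytb) to 0.194 (mt-Atp8) log2 units. The closest of the predicted loci (Gm symbols) were the copies Gm10925 and Gm28661 (both 0.0777) and Gm13340 (0.0853), which share sequence with them. The mitochondrial genes of complex I lay at 0.0657 (mt-Nd4) to 0.305 (mt-Nd6). Among nuclear genes of at least 1 CPM with a named symbol (not Gm or Rik), the closest was Uqcrq, the complex III subunit, at 0.194. The next were AA465934 (0.210), the glycolytic enzyme gene Gapdh (0.219), Romo1 (0.226), whose product lies in the mitochondrial inner membrane, and Rab26os (0.228). Mean centred levels of Uqcrq were 0.55 in canagliflozin ovaries, -0.02 in 12-month controls and -0.54 in 6-month controls, and those of mt-Cytb were 0.76 in canagliflozin ovaries, -0.18 in 12-month controls and -0.58 in 6-month controls. Gapdh had 6055, 3053, 5038, 4831 and 2717 normalised reads in canagliflozin ovaries, 2638, 2728, 3539, 2186 and 2044 in 12-month controls and 1870.3, 2020.4, 2223, 1544 and 1561 in 6-month controls, with its lowest canagliflozin value in replicate 5 and its highest 12-month value in replicate 3. Romo1 had 1232, 962, 1343, 1292 and 949 in canagliflozin ovaries, 804, 795, 929, 721 and 669 in 12-month controls and 546, 542, 596, 534 and 502 in 6-month controls, with no overlap. These genes were picked for their likeness, so their pattern is a description.

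**Figure D5:**
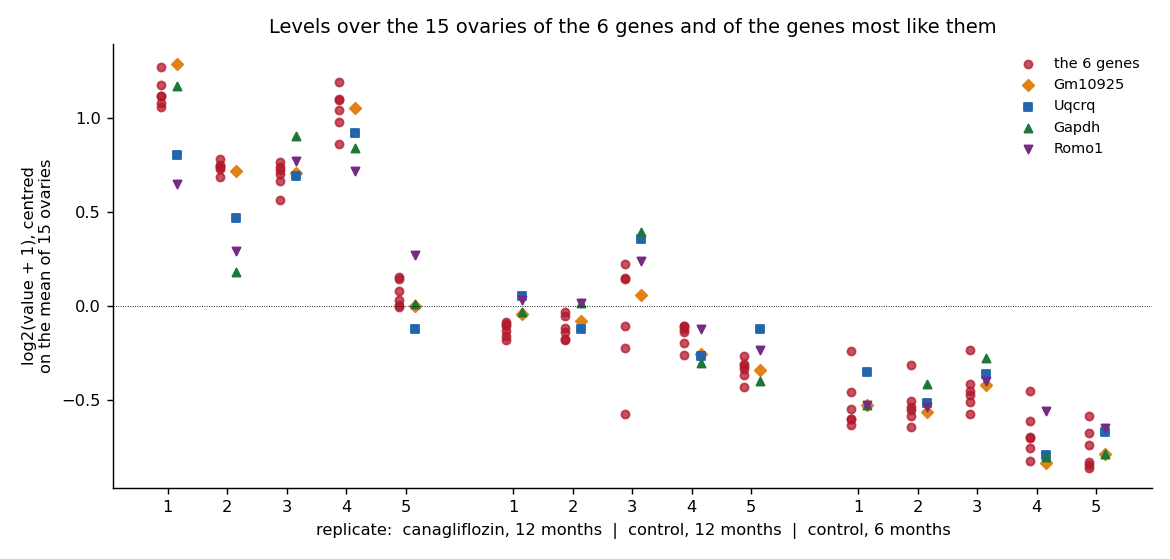
Log2(value + 1), centred on the mean of the 15 ovaries (vertical axis), for the 6 genes (circles) and for Gm10925, Uqcrq, Gapdh and Romo1, by library in replicate order within each group (horizontal axis). Canagliflozin replicate 5 lies near the 12-month controls for all genes drawn, and in 12-month control replicate 3 the circle far below the others is mt-Atp8.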

How the data were processed

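RNA was measured in 15 ovaries, 5 per group. The deposited values are a non-negative signal, gene-level reads that the authors divided by 1 size factor per library, and the table gives no depth. Per the submitters' processing notes the tool was Partek 11.0 and the build mm39. For the aligner, counting rule and annotation, no entry is given in the sources used here. At least 99.99% of a library's values were whole multiples (within 0.1 read) of 1 step, which gave back reads. For 12 libraries the step differed clearly from 1, and in the other 3 a step near 1 cannot be separated from rounding. Depth was 8472205 to 13629491 reads per library. As the unit is not counts, limma 3.58.1 (R 4.3.3, trend and robust variance) was fitted on log2(value + 1) over 17569 genes reaching 10 in 5 or more libraries, all 15 libraries in 1 fit, with Benjamini-Hochberg adjustment and a threshold of 0.05. Under this rule 7087 genes were left out. Composition measures were compared with exact two-sided permutation tests over libraries, adjusted over 10 tests (5 measures in 2 comparisons).

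edgeR 4.0.16 and DESeq2 1.42.0 on the recovered reads were alternatives. edgeR with TMM called 8 genes higher and 1 lower for canagliflozin minus 12-month control, and 996 higher and 1228 lower for 12-month minus 6-month control. On the 12 libraries with a clear step, an alternative chosen after seeing the data, it called 23 higher and 0 lower for canagliflozin minus 12-month control (limma called 1 and 0, with 1616 genes at an unadjusted p under 0.05, and DESeq2 called 44 and 15). For 12-month minus 6-month control it then called 815 and 942. Adding the reads of nuclear copies to their mitochondrial genes was also chosen after seeing the data. Of the fits, only limma was tested on simulated reads, for 12-month minus 6-month control. Transcript sequences and lengths came from GENCODE M21 (GRCm38), aligned with blastn 2.17.0, and no coordinates were carried between builds.

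The 6 genes and all lists were chosen with earlier results of these data known. Of each list of nuclear partners, the 3 genes with the smallest p in each comparison and all called genes are named. The 5 most similar nuclear genes of at least 1 CPM with a named symbol (not Gm or Rik) and the 3 most similar predicted loci are named too. Replicate numbers come from the sample titles. Correlations of same-numbered libraries ran from -0.30 to 0.25, so the numbers were not taken to pair samples. Replicates of 1 group differed by more than sampling noise (chi-square per degree of freedom of at least 15.5).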

Additional observations from a re-analysis of the deposited data

Results flagged for a closer look

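In 108 groups of 5 libraries, 11 had 1 library farther from its nearest neighbour than Dixon's 95% limit allows, where chance gives about 1 in 20. All 11 concerned nuclear partners. In 12-month control replicate 3, Uqcr11 had 1546 normalised reads, Cox6b1 1808, Cox19 390.1, Cox17 1575 and Atpif1 2899.5, each above the rest of its group. In 12-month control replicate 4, Atp5g1 (188) and Atp5b (8967) lay below the rest. Cox20 was low in canagliflozin replicate 5 (265 normalised reads), and Ttc19 was high in canagliflozin replicate 1 (327). In 6-month controls, Taco1 was high in replicate 1 (155) and Atp5h in replicate 3 (1007). The part of these libraries in the results was not tested beyond leaving each out in turn.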

How the results depend on the processing

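All fold changes of the 6 genes kept their direction under every alternative run. In 12-month minus 6-month control, limma called 1 of the 6 higher. The count was 5 with only the groups compared or with voom sample weights, 4 with DESeq2 or at an adjusted p under 0.1, and 2 with scaling to non-mitochondrial reads, with the replicate block or with edgeR on the 12 clear-step libraries (a choice made after seeing the data), and 0 to 5 with 1 library left out. Called nuclear partners in 12-month minus 6-month control numbered 2 higher and 2 lower. The higher count was 1 without a filter on low values, 9 with only the groups compared or with voom, 8 with the replicate block, 10 with DESeq2, 4 with scaling to non-mitochondrial reads and 11 at an adjusted p under 0.1. With 1 library left out it was 1 to 6: 4, 6 and 5 without canagliflozin replicates 1 and 5 and 12-month control replicate 5, and 1 when replicate 1 or 3 of the 12-month controls, or replicate 1, 2, 4 or 5 of the 6-month controls, was left out. The lower count was 3 with voom, 1 with the replicate block and with non-mitochondrial scaling, and 1 or 2 with 1 library left out (1 without any 12-month control, or 6-month control replicate 1, 2, 3 or 5). For canagliflozin minus 12-month control the higher count was 1 with DESeq2 and 0 or 1 with 1 library left out. With replicate number as a block the mt-Atp8 to mt-Atp6 age difference was -0.48 (exact p = 0.0625, the smallest a block allows). Same-numbered libraries correlated best with each other in 2 of 10 cases, so the block rests on numbers alone. The causes of these changes were not tested. Among the alternatives, calls over all genes are given only for edgeR with TMM and for DESeq2. Over all alternatives, among single results 59 values came past the threshold, 30 no longer passed and 1675 stayed on their side of it. Staying could include a change of sign where neither value passed. The age log2 fold change of Atp5g1, for example, ran from -0.26 to 0.07. Of the summary values, such as medians and counts of called genes, 49 moved, 1 weakened and 235 stayed. For the fold changes that were not tested, staying meant moving by less than the SD within groups. Leaving out 1 library moved the median log2 fold change of the 6 within 0.81 to 1.06 (canagliflozin minus 12-month control), 0.43 to 0.51 (12-month minus 6-month control) and 1.27 to 1.53 (canagliflozin minus 6-month control). With 5 libraries per group, exact tests cannot go below p = 0.00794. Reads from identical nuclear copies and from overlapping genes limit the levels.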
